A study of Drosophila melanogaster with 6 samples.

Results

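Nuclear genes encode most subunits of the mitochondrial machinery that turns the oxidation of food into ATP, and 74 of them were followed here through Drosophila melanogaster ovaries with and without extra Sam-S in the germline. The 74 genes were chosen by name, as the rows of the deposited table whose symbol starts with ND-, UQCR-, COX or ATPsyn, out of 17457 rows in all. They comprised 40 genes of complex I, 8 of complex III, 11 of complex IV and 15 of complex V. Of the 74, 58 were counted as ubiquitous subunits and 16 as testis-type paralogs, which carry an L at the end of the symbol. ND-MNLL was kept among the ubiquitous genes because its final L belongs to the name of the subunit. The naming rule uses no measured value, but it was set with earlier results of these data known.

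RNA was measured by polyA RNA-seq in 6 ovary samples, 3 per group. In the overexpression group a UASp-Sam-S construct was driven by nanos-gal4, a driver active in germline cells. In the control group nanos-gal4 flies had been crossed to flies carrying the empty docking site, so the driver was shared by both groups; the labels give no age. Each sample also holds somatic follicle cells and the muscle sheath, which the driver does not target. Sam-S makes S-adenosylmethionine, the methyl donor of the cell.

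As background, complex I (NADH dehydrogenase) passes electrons from NADH to ubiquinone, complex III (ubiquinol-cytochrome c reductase) passes them to cytochrome c, and complex IV (cytochrome c oxidase) hands them to oxygen. The proton gradient these complexes build drives complex V, the ATP synthase, whose membrane ring turns a shaft inside the catalytic head. In the fly, mitochondria are loaded into the oocyte in large numbers and inherited from the mother. Many nuclear-encoded mitochondrial genes of the fly have a duplicate known for expression in the testis, which is the reason the paralogs are treated apart.

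Levels are in TPM, an abundance that allows for transcript length and adds up to the same amount in each library, so genes can be set beside each other. The check of the targeted gene held: Sam-S was at 483.3 to 512.3 TPM in the controls and 1443 to 1572 TPM with the transgene (log2 fold change 1.61, limma adjusted p = 2.79e-06). Germline markers lay between 24.1 and 997.8 TPM on average in 8 of 8 genes, and 5 of 6 follicle cell and 8 of 9 muscle sheath markers averaged at least 1 TPM. The 11 testis markers summed to between 0.73 and 1.57 TPM per sample, with 6 of them at 0 in every sample, and the highest, topi, at 0.64 to 1.32 TPM.

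The 57 tested ubiquitous subunits and the testis-type subunits formed separate ranges with no member in between, and the remaining ubiquitous gene, ND-B8, lay with the testis-type genes. Of the 58 ubiquitous genes, 57 averaged between 75.9 and 2474 TPM, and the lowest value of any of the 57 in any sample was 71.0 TPM. No testis-type gene exceeded 0.95 TPM in any sample. The highest testis-type mean was 0.482 TPM, and 5782 features of the table (33.1%) had means between it and 75.9 TPM. The median ubiquitous subunit, at 257.5 TPM, lay above 92.8% of the 7855 features that averaged at least 1 TPM, the level required for testing.

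**Figure D1:**
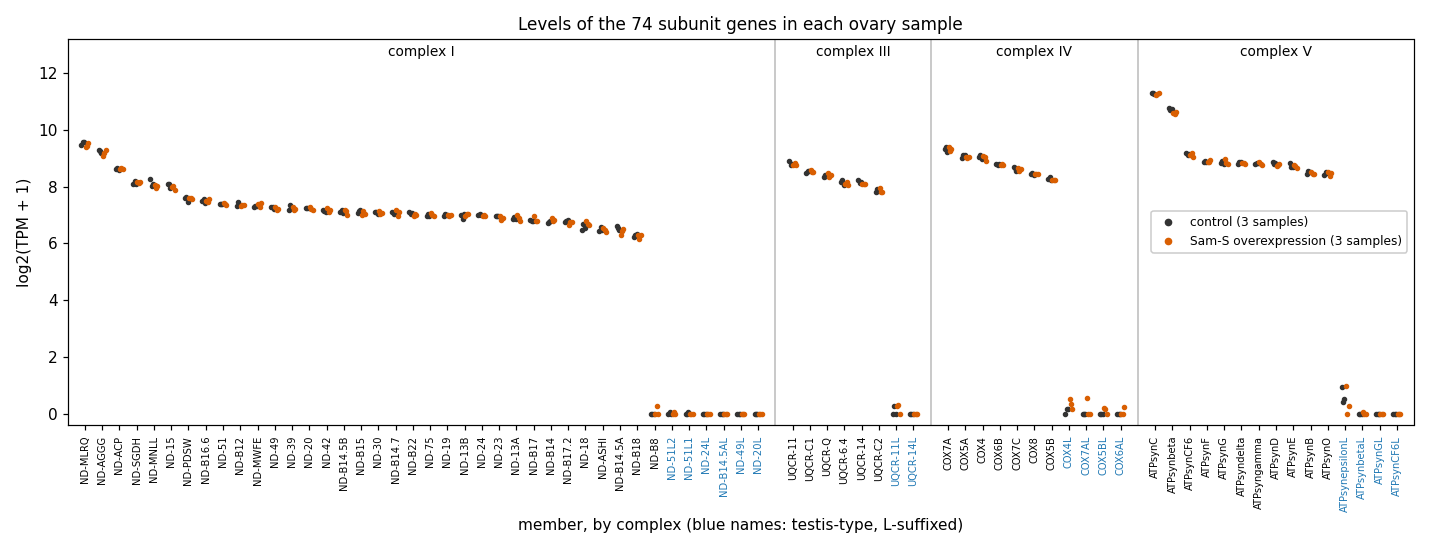
Level of each of the 74 genes as log2(TPM + 1), 1 point per sample, with controls in black and Sam-S overexpression in orange; genes are ordered by mean within each complex, and blue names mark the testis-type paralogs. The 57 tested subunits lie between 71.0 and 2531 TPM in every sample, while ND-B8 and all 16 testis-type genes lie at or under 0.95 TPM.

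In complex I, 27 of the 33 tested subunits averaged at or under 200 TPM and 6 averaged from 257.5 TPM upward. The 7 core subunits, which carry the flavin, the iron-sulfur clusters and the ubiquinone site, kept close to each other: their means ran from 120.9 TPM for ND-23 to 166.6 TPM for ND-51, a 1.38-fold range. ND-51, which holds the flavin that takes electrons from NADH, averaged 166.6 TPM, and its neighbour ND-75 averaged 126.9 TPM. ND-49 and ND-20, which form the ubiquinone site, averaged 149.9 and 149.4 TPM. The groups overlapped for all 7 core genes. The 26 tested accessory subunits spanned a 9.48-fold range. ND-MLRQ was the highest, at 702.5, 759.3 and 751.2 TPM in controls 1 to 3 and at 669.5, 692.1 and 739.7 TPM with overexpression. The mammalian counterpart of ND-MLRQ has been assigned to complex IV rather than to complex I. ND-AGGG, a small subunit of the membrane arm, followed at 577.9 to 624.1 TPM in controls and 544.6 to 625.2 TPM with overexpression. ND-ACP, the mitochondrial acyl carrier protein, which also serves mitochondrial fatty acid synthesis, averaged 393.3 TPM. ND-SGDH, ND-MNLL and ND-15 completed the upper group. The lowest tested subunit was ND-B18, at 73.4, 77.1 and 78.5 TPM in controls and 77.0, 71.0 and 78.4 TPM with overexpression, so the groups overlapped for it and for each of the other complex I subunits named in this paragraph.

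ND-B8 (FBgn0040705, chromosome 2L, 4454626 to 4455207, plus strand) stood apart from the rest of complex I although it has no L suffix. Its TPM was 0 in every library but overexpression 2, where it reached 0.20 TPM. The other 33 ubiquitous complex I rows had 71.0 TPM or more in all samples. The annotation gives ND-B8 a 460-base transcript with 3 coding exons, whose exons overlap those of Gs1l on the other strand. Such overlaps were common: 29 of the 57 tested subunits also have an exon that overlaps one of another gene. In 7 of them the other gene lies on the same strand (ND-MLRQ, ND-MNLL, ND-15, ND-MWFE, UQCR-Q, COX6B and ATPsynC). How the authors treated reads in such overlaps is not given in the sources used here, so these levels are uncertain to that extent.

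Complexes III, IV and V had higher median levels per subunit than complex I. The median subunit level per sample was 134.8 to 141.7 TPM for complex I and 302.5 to 317.9 TPM for complex III. It was 434.0 to 447.1 TPM for complex IV and 440.6 to 464.4 TPM for complex V. The ranges of these medians thus did not overlap among complexes I, III and IV, whereas those of complexes IV and V did. Single subunits did overlap between complexes. ND-MLRQ and ND-AGGG of complex I averaged 719.1 and 593.7 TPM, beside 640.2 TPM for COX7A, the highest of complex IV.

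The 6 ubiquitous complex III genes lay within a 1.93-fold range. UQCR-11 was the highest, at 437.0 to 472.0 TPM in controls and 428.8 to 451.8 TPM with overexpression. The large core proteins, which line the matrix side of the complex, were unequal: UQCR-C1 averaged 368.5 TPM and UQCR-C2, the lowest of the 6, averaged 230.5 TPM. UQCR-C1 was at 353.4, 374.1 and 370.7 TPM in controls and 383.6, 363.2 and 365.8 TPM with overexpression. UQCR-C2 was at 222.3, 238.5 and 228.8 TPM in controls and 244.4, 225.2 and 223.8 TPM with overexpression, so both overlapped between the groups while staying apart from each other in all 6 samples.

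The 7 ubiquitous complex IV genes lay within a 2.10-fold range. COX7A was highest in every sample, at 631.5, 677.1 and 599.0 TPM in controls and 677.2, 612.4 and 644.2 TPM with overexpression. COX5A followed at 507.4 to 553.9 TPM in controls and 518.6 to 527.7 TPM with overexpression. COX5B, which binds zinc, was lowest at 297.6 to 322.4 TPM and 298.1 to 302.8 TPM. The groups overlapped for all 7 genes of this complex. COX4, COX6B, COX7C and COX8 averaged 518.2, 439.2, 391.4 and 346.8 TPM. Going down the order of means, 5 of the 6 neighbouring pairs had values that did not overlap over the 6 samples; COX5A and COX4 were the pair that did overlap.

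In complex V, ATPsynC and ATPsynbeta held between 49.5% and 51.8% of the summed level of 11 genes. ATPsynC encodes the subunit that is repeated around the membrane ring, and ATPsynbeta encodes the catalytic subunit, which is present in several copies per head. ATPsynC was at 2520, 2482 and 2457 TPM in controls and at 2378, 2475 and 2531 TPM with overexpression. The other 9 subunits averaged between 350.9 and 560.2 TPM. The lowest was ATPsynO, a part of the stalk that holds the head, at 337.3, 366.7 and 351.5 TPM in controls and 364.9, 333.9 and 351.1 TPM with overexpression. The partner of ATPsynbeta in the head, the alpha subunit, is listed under the symbol blw, which the naming rule does not take in, and averaged 1017 TPM. Of these genes ATPsynbeta alone did not overlap between the groups.

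The 16 testis-type paralogs were at or near 0 in the ovary. For 7 of them (ND-20L, ND-24L, ND-49L, ND-B14.5AL, UQCR-14L, ATPsynGL and ATPsynCF6L) every sample was listed at 0. Of all 96 testis-type values 21 were above 0, 8 of 48 in controls and 13 of 48 with overexpression. Their sum was 0.94, 0.73 and 0.61 TPM in controls and 2.25, 0.68 and 0.52 TPM with overexpression, so 1 overexpression sample lay above the controls and the other 2 lay among or below them. The highest was ATPsynepsilonL, the paralog of the epsilon subunit gene sun, at 0.94, 0.34 and 0.44 TPM in controls and 0.95, 0 and 0.22 TPM with overexpression. COX4L was above 0 in 5 samples, at no more than 0.42 TPM. The testis-type gene held at most 0.218% of the summed level of its pair in any sample. With the 11 testis markers also at or under 1.32 TPM, none of the 16 passed the filter on low values and none was tested. An exact 0 in TPM says only that the gene is listed at 0, since the depth is not known.

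The paralog pairs also differed in gene structure. Each of the 16 testis-type genes was set beside the ubiquitous gene of the same subunit, 15 different genes, with levy as the partner of COX6AL and sun as that of ATPsynepsilonL. The testis-type gene had fewer coding exons in 11 pairs, the same number in 5 and more in none. A single coding exon was annotated in 9 of the 16 testis-type genes and in 1 of the 15 partners, ND-20. ND-49 has 6 coding exons and ND-49L has 2, and ND-51 has 4 while ND-51L1 has 1 and ND-51L2 has 2. In 12 pairs the members lie on different chromosome arms. In 5 pairs the ubiquitous gene lies on the X chromosome (ND-20, ND-24, ND-B14.5A, UQCR-14 and sun) and in 2 on chromosome 4 (ND-49 and ATPsynbeta), while none of the 16 testis-type genes lies on either. On the same strand of chromosome 2L, 122 bases separate COX5B from COX5BL, and COX7AL lies 2625 bases from COX7A on 3R. COX5BL reached at most 0.14 TPM beside 297.6 to 322.4 TPM for COX5B.

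No subunit gene passed the test for a change with Sam-S overexpression. Of the 57 tested, 0 had an adjusted p under 0.05 (limma on log2(TPM + 1), Benjamini-Hochberg over 7855 features), against 0.280% of all features (0.178% higher and 0.102% lower). At an unadjusted p under 0.05 there was 1 of the 57, ATPsynbeta, or 1.75%, against 6.58% of all features (3.62% higher and 2.97% lower). The smallest adjusted p was 0.578. In the authors' deposited table, 0 of the 74 had an FDR under 0.05, and the smallest unadjusted p of a member in the authors' deposited table was 0.0528, that of ATPsynbeta. In bulk samples such as these, fewer cells of a type and less RNA per cell cannot be told apart.

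The intervals give the size of change that the data leave possible. Fitted log2 fold changes ran from -0.13 to 0.14, and the 95% confidence intervals of all 57 lay between -0.27 and 0.29, which corresponds to 0.827-fold and 1.22-fold. For 54 of the 57 the interval lay within 0.25 of 0; the exceptions were ND-18, ND-MNLL and ND-B14.5A. A miss of the threshold does not show that the levels were equal, and shifts smaller than these bounds remain possible. The members varied little between replicates: the median within-group SD on the log2 scale was 0.05, beside 0.07 for the 2515 features in the same range of means and 0.10 for all tested features.

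**Figure D2:**
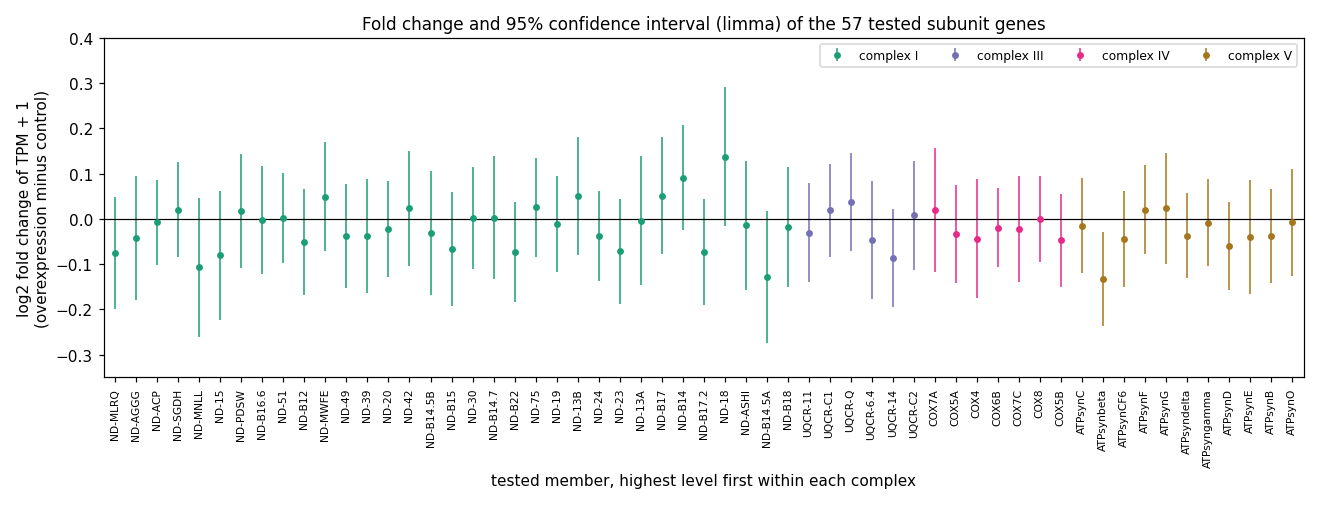
Log2 fold change of TPM + 1 (Sam-S overexpression minus control) with its 95% confidence interval from limma, for the 57 tested subunits ordered by level within each complex. The points lie between -0.13 and 0.14, and only the interval of ATPsynbeta, from -0.24 to -0.03, leaves out 0.

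More members lay below 0 than above it, 38 against 19, or 66.7%. Among all tested features 56.0% lay below 0, and among the 2515 features in the same range of means 68.2% did. The median log2 fold change was -0.02 for the 57 members and -0.01 for all tested features. It was -0.03 for the 2515 features in the same range of means. By complex the medians were -0.01 for complex I, -0.01 for complex III, -0.02 for complex IV and -0.04 for complex V, and under quantile normalization those of all 57 members (0.0020), complex I (0.0043) and complex III (0.013) were above 0. Within complex I the median was -0.02 for the 7 core and -0.01 for the 26 accessory subunits.

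The summed levels showed the same small differences. Complex I summed to 6099, 6210 and 6025 TPM in controls and 6019, 5945 and 6047 TPM with overexpression, which overlap. Complex III summed to 1956, 1960.1 and 1916 TPM and to 1954, 1921 and 1894 TPM. Complex IV summed to 3177, 3284 and 3115 TPM and to 3226, 3109 and 3117 TPM, so these also overlapped. Complex V summed to 8270, 8162 and 8113 TPM in controls and 7933, 7916 and 7996 TPM with overexpression, 2.85% lower in the mean with no overlap. Without ATPsynbeta and ATPsynC the other 9 complex V genes summed to 3976 to 4016 TPM in controls and 3878 to 4006 TPM with overexpression, which overlap. This sum leaves out ATPsynC, whose own groups overlapped, as well as ATPsynbeta. It therefore does not show what leaving out ATPsynbeta alone would do. With only ATPsynbeta taken out, the complex V sums still did not overlap between the groups, by a narrow margin. All 58 genes together summed to 19169 to 19616 TPM in controls and 18892 to 19132 TPM with overexpression, 2.07% lower in the mean with no overlap, and held 1.89% to 1.96% of all TPM. The group means of this sum were 19429 TPM in controls and 19026 TPM with overexpression. ATPsynbeta alone differed by -150.1 TPM in the mean, so the difference was not spread evenly over the 58 genes. The margin between the groups in the sum of all 58 was small. With ATPsynbeta taken out, that sum overlapped between the groups.

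**Figure D3:**
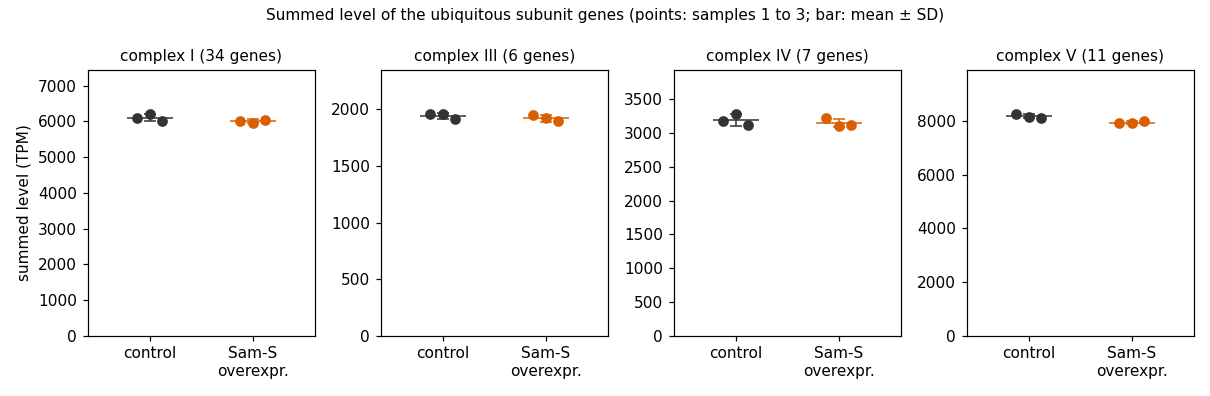
Summed level in TPM of the ubiquitous subunit genes of each complex, 1 point per sample with the mean and SD (n = 3) of each group and axes that start at 0. Complex V lies at 8113 to 8270 TPM in the controls and 7916 to 7996 TPM with overexpression; the other complexes overlap between the groups.

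In 4 of the 57 subunits, 7.02%, both groups were fully separated, against 11.9% of all tested features (6.25% higher and 5.60% lower). These were ATPsynbeta, UQCR-14 and ND-B17.2, which were lower with overexpression, and ND-B14, which was higher.

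ATPsynbeta (FBgn0010217, chromosome 4, 1031484 to 1034917, plus strand) was at 1761, 1664 and 1680.1 TPM in controls and at 1550, 1517 and 1588 TPM with overexpression. All 3 controls were above all 3 overexpression samples, and the overexpression mean was 91.2% of the control mean. Its log2 fold change was -0.13 (SE 0.05), and limma gave an unadjusted p = 0.0183 and an adjusted p = 0.578, so it did not pass the threshold. Taken batch by batch, the differences on the log2 scale were -0.18, -0.13 and -0.08, and a limma fit blocked on batch gave an unadjusted p of 0.0622. Without control 1 the unadjusted p was 0.0842, and without overexpression 2 it was 0.0764. The ratio of ATPsynbeta to blw, the alpha subunit, was 1.70, 1.63 and 1.66 in controls and 1.49, 1.50 and 1.62 with overexpression. The alpha subunit itself was at 1037, 1022 and 1011 TPM and at 1041, 1010.2 and 982.1 TPM, which overlap. ATPsyngamma and ATPsyndelta, which form the shaft within the head, had log2 fold changes of -0.01 and -0.04 and also overlapped.

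UQCR-14, a subunit of complex III on the X chromosome, was at 302.0, 274.8 and 283.4 TPM in controls and 272.0, 268.4 and 268.8 TPM with overexpression. The fitted log2 difference came to -0.09 (SE 0.05), with a limma adjusted p = 0.866. The lowest control exceeded the highest overexpression sample by a small margin beside the spread of the controls. ND-B17.2, an accessory subunit of complex I, was at 107.8, 108.5 and 111.6 TPM and at 98.6, 106.9 and 106.2 TPM, a log2 fold change of -0.07. ND-B14, another accessory subunit of complex I, was at 104.1, 106.6 and 108.6 TPM in controls and 118.9, 109.1 and 112.4 TPM with overexpression, with a fitted log2 difference of 0.09 (SE 0.05) and an adjusted p = 0.867 in limma. For both genes the gap between the groups was smaller than the range within them.

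The smallest unadjusted p on the higher side, 0.0723 in limma, was that of ND-18, the counterpart of a human accessory subunit in which mutations cause Leigh syndrome, at 87.7, 101.4 and 93.0 TPM in controls and 109.3, 101.8 and 99.3 TPM with overexpression. Its log2 fold change was the largest of the 57, 0.14 (95% confidence interval from -0.02 to 0.29, limma adjusted p = 0.829), and the groups overlapped. ND-MWFE, ND-B17 and ND-13B, all accessory subunits of complex I, each had a log2 fold change of 0.05 with overlapping groups. On the lower side ND-B14.5A was at 95.6, 92.4 and 87.5 TPM in controls and 78.2, 84.8 and 88.9 TPM with overexpression, for which the fitted log2 difference was -0.13 (limma adjusted p = 0.834). ND-MNLL was at 303.6, 256.6 and 273.2 TPM and at 266.5, 246.6 and 259.0 TPM, and ND-B22 at 135.9, 129.5 and 133.9 TPM and at 122.4, 131.4 and 125.6 TPM. Both overlapped between the groups.

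**Figure D4:**
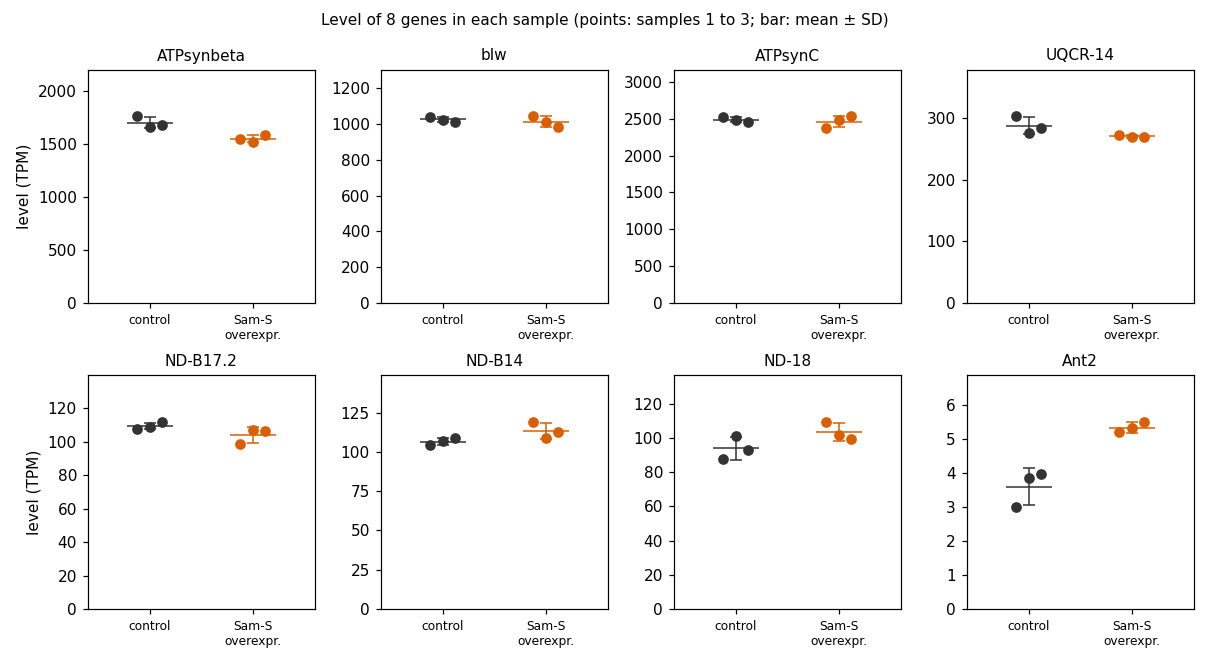
Level in TPM of 8 genes in each sample, 1 point per sample with the mean and SD (n = 3) of each group and axes that start at 0. ATPsynbeta, UQCR-14 and ND-B17.2 lie lower and ND-B14 and Ant2 higher with overexpression with no overlap, whereas blw, ATPsynC and ND-18 overlap.

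The order of the subunits within each complex was similar between libraries. The highest member was the same gene in all 6 samples in each of the 4 complexes, and the lowest member was the same in complexes I, III and IV. Across subunits, the rank correlation between any 2 samples was at least 0.962 in complex I, 0.943 in complex III, 0.964 in complex IV and 0.809 in complex V; subunits are not independent replicates, and these values describe the libraries. Neighbours in the order were often inseparable. In complex I only 4 of 32 neighbouring pairs had values that did not overlap over the 6 samples, and in complex V 4 of 10.

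The subunit genes were short in the median. The longest annotated transcript had a median of 802 bases for the 57 tested subunits and 2062 bases for the 7412 tested protein-coding genes, and the coding sequence a median of 432 and 1368 bases. Of the 57, 12 lie on X (21.1%, against 18.0% of tested features), 11 on 2L, 9 on 2R, 12 on 3L, 11 on 3R and 2 on chromosome 4. The 2 on chromosome 4 were ND-49, a core subunit of complex I, with a log2 fold change of -0.04, and ATPsynbeta.

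Subunits of the same machinery that carry other names were examined in the same way. Of 13 such genes, 10 were tested and 0 passed in either direction. They were RFeSP and Cyt-c1 of complex III, levy and cype of complex IV, sun of complex V, the 4 succinate dehydrogenase genes SdhA, SdhB, SdhC and SdhD of complex II, and Cyt-c-p, the somatic cytochrome c. The smallest unadjusted p was that of SdhC, at 121.9, 124.6 and 115.01 TPM in controls and 133.8, 121.0 and 126.1 TPM with overexpression (log2 fold change 0.07, limma adjusted p = 0.926). SdhA, at 137.7, 138.3 and 143.8 TPM in controls and 136.6, 136.3 and 131.6 TPM with overexpression, was the 1 of the 10 whose groups did not overlap (log2 fold change -0.05, limma adjusted p = 0.934). The testis-associated copies SdhAL, SdhBL and Cyt-c-d were at or under 0.11 TPM in every sample. The reference gene names put the prefixes on 6 more rows that the table lists under other symbols. One of these, CG7630 (COX7B), was at 538.7 to 571.1 TPM, and the other 5, all L-suffixed in the reference, were at or under 1.23 TPM.

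The 9 assembly factors, which insert cofactors or join subunits, included 0 that passed in either direction. Bcs1, which places the iron-sulfur protein into complex III and is listed as CG4908, had the smallest unadjusted p, at 41.0, 41.0 and 41.2 TPM in controls and 42.5, 43.4 and 45.3 TPM with overexpression (log2 fold change 0.09, limma adjusted p = 0.887). Among 15 genes of mitochondrial biogenesis and mitochondrial genome expression 0 passed either way. The smallest unadjusted p there was that of mtSSB, which binds single-stranded mitochondrial DNA, whose fitted log2 difference was -0.08 (limma adjusted p = 0.884). Other genes of that list were srl, the fly counterpart of the PGC-1 coactivators, at 203.0 to 251.3 TPM, and TFAM, which packages mitochondrial DNA, at 176.7 to 185.5 TPM. Ccdc56 and mtTFB1 had the same 6 values and count as 1 measurement.

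Of 5 carriers and porin, 4 were tested and 0 passed. The main ADP/ATP carrier sesB, which exports the ATP made by complex V, was at 1828.3, 1871 and 1828.1 TPM in controls and 1709.8, 1724 and 1768 TPM with overexpression, with no overlap (log2 fold change -0.09, limma adjusted p = 0.820). Its neighbour Ant2, a second ADP/ATP carrier, was at 2.99, 3.85 and 3.97 TPM and at 5.20, 5.33 and 5.50 TPM, also with no overlap, in the other direction. Its log2 fold change was 0.47 (SE 0.13, limma unadjusted p = 0.00756, adjusted p = 0.461). With sesB and Ant2, 50.0% of the 4 tested genes of this list did not overlap, against 11.9% of all tested features. Ant2 and sesB overlap on the same strand of the X chromosome, so their levels depend on how shared reads were assigned.

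Beside these values, the 8 germline markers summed to 2303 to 2333 TPM in controls and 2381 to 2425 TPM with overexpression, with no overlap. This sum is weighted toward osk, the highest of the 8. Its level was 938.6 to 981.3 TPM in controls and 1025 to 1070 TPM with overexpression, so the sum does not speak for the germline markers as a whole. Of the 8 markers 4 (aub, grk, osk and orb) had a limma unadjusted p under 0.05, all higher. Among all tested features 3.62% had such a p and were higher, and 6.58% had one in either direction. The log2 fold changes of nos, otu and vas were -0.04, -0.06 and -0.10. In limma 0 of 8 passed the adjusted threshold, and the median log2 fold change was 0.12. The 6 follicle cell markers summed to 10217 to 11780.4 TPM and 8816 to 14809 TPM, and the 9 muscle sheath markers to 143.9 to 196.5 TPM and 140.5 to 212.7 TPM, each overlapping, with 0 passing. All 8 tested muscle sheath markers had a log2 fold change above 0, with a median of 0.14, whereas 56.0% of all tested features lay below 0. The groups overlapped for each of these markers but bt, and markers of the same tissue are not independent replicates. The part of cell composition in the subunit levels was not tested.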

How the data were processed

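Per the file headers, the authors deposited TPM per sample for 17457 rows, which sum to between 999999.74 and 1000000.24. The submitters' processing notes name STAR; the counting method, the strand setting, the genome build and the annotation are not given in the sources used here. Depth is unknown, because TPM does not keep it, so no detection floor was computed and 3 samples per group set the precision. For each row the authors also deposited a p-value with its FDR, a log2 CPM and a log2 fold change, per the file headers. TPM columns were matched to samples by the labels.

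The members and lists were chosen with earlier results of these data known. Features averaging at least 1 TPM (7855) were tested on log2(TPM + 1) with limma 3.58.1 (R 4.3.3; lmFit, eBayes with trend), overexpression minus control, two-sided, adjusted by Benjamini-Hochberg over all of them, threshold 0.05. This scale understates changes of low genes. The test was checked on simulated data. Genes named by rule were, in each complex, the 2 highest and the lowest ubiquitous member. The 5 of smallest p in each direction and the smallest p of each list other than the cell type markers were also named. Some of these are given only as ranges or fold changes. After their values were seen, blw, ND-B8, ND-B17.2, SdhA and sesB were added. In the labels the batch field repeats the replicate's number, which pairs the samples. Deviations of same-numbered samples correlated at -0.06, -0.06 and 0.21, and those of other-numbered samples at -0.23 to 0.26, so same-numbered samples were not more alike. Nothing in the labels says that samples came from separate crosses, so p-values measure the spread between these samples. Coordinates are the table's; all 74 members have the same ones in the Ensembl BDGP6.54 annotation, which gave exons and lengths. Python 3.11.15, pandas 2.3.3 and matplotlib 3.10.9 did the rest. Alternatives were a pseudocount of 0.1, no filter, a mean of at least 5 TPM, trimmed mean scaling, quantile normalization, the batch block, no trend, and each sample left out. Mitochondrially encoded subunits and promoter motifs were not analysed here.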

Additional observations from a re-analysis of the deposited data

How the results depend on the processing

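The count of changed members was 0, in both directions, under all 13 alternatives, and the lowest adjusted p of any member was 0.510 (ATPsynbeta without control replicate 2). The count at an unadjusted p under 0.05 ran from 0 to 4. With the replicate block, the adjusted p of ATPsynbeta was 1.00 and 0 members had an unadjusted p under 0.05; the block changed no call. ATPsynbeta stayed lower in all fits, from -0.15 to -0.11 when a sample was left out. Under quantile normalization the median log2 fold change moved to -0.0028 for complex IV and -0.0030 for complex V, and it changed sign for all 57 members (0.0020), complex I (0.0043) and complex III (0.013). In the same fit ND-B18 (0.0027) and ATPsynO (0.029) changed sign, the latter also under trimmed mean scaling (0.0017). Signs also changed among the fits that left out a sample for genes near 0: ND-AGGG ran from -0.092 to 0.0076, ND-B18 from -0.045 to 0.025, UQCR-11 from -0.051 to 0.0059, UQCR-C1 from -0.0064 to 0.035, UQCR-C2 from -0.033 to 0.034, COX7A from -0.022 to 0.066, ATPsynC from -0.035 to 0.0096, ATPsynO from -0.038 to 0.026 and ND-B17 from -0.0015 to 0.078. The median of all 57 ran from -0.036 to -0.0081 in these fits and that of complex III from -0.023 to 0.013, above 0 without control replicate 2 and without overexpression replicate 3. The count over all features was 22 and ran from 11 to 28 over the alternatives, with 13 without the filter, 11 without control replicate 1 and 12 without control replicate 3. The cause was not tested. Without the depth, the zeros of ND-B8 and the testis-type genes cannot be set against counting error.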
